A study of Mus musculus with 6 samples.

Results

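The genes of collagens, laminins and other proteins of the extracellular matrix were examined in mDCT15 cells, a mouse cell line of the distal convoluted tubule, the short nephron segment behind the thick ascending limb. The genes were chosen by their symbols: collagen chains, laminin chains, fibrillins, fibulins, elastin, the lysyl oxidases, nidogens, fibronectin, thrombospondins, tenascin C, periostin, Sparc, emilins, vitrin, matrilins, latent TGF-beta binding proteins, the Fraser complex genes, nephronectin, Vwa1 and the microfibril associated proteins. This choice gave 78 of the 20624 genes, and no symbol occurred in more than 1 row. RNA sequencing had been done on 3 Pkd1-/- samples, in which the gene of polycystin-1 was disrupted by CRISPR-Cas9, and on 3 wild type samples. Titles describe the modified cells as Pkd1-/-, whereas their genotype field calls them a knockdown. No treatment or time point was given. According to the paper, both genotypes were cultured in the same serum-containing medium. Whether serum was present when RNA was taken is not stated there. Whether a genotype was represented by more than 1 clone is not given in the sources used here.

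The value analysed is the authors' mean normalised count of each gene over all 6 samples, that is, the read count divided by the size factor of its library and then averaged. It is a single pooled value per gene. It therefore carries no replicate error, the depth of the samples is unknown, and the genotypes were not compared: the levels below describe wild type and Pkd1-/- cells together. Since each genotype contributed 3 samples, the mean within a genotype cannot be higher than 2 times the pooled mean, which gives an upper limit in both genotypes for genes with low values. A high pooled mean, in contrast, may come from either genotype or from both, and these possibilities cannot be told apart here. Levels of different genes are compared as mean normalised count per kilobase, after division by the length of the annotated exons. Undivided means favour long transcripts. They are given as the number of reads behind a value, for limits on the mean and, where stated, for ratios of counts.

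Matrix proteins form the scaffold on which cells sit. A tubule rests on a basement membrane, a thin sheet built from a laminin network and a collagen IV network, which are linked by nidogen and the proteoglycans perlecan and agrin. Fibrillar collagens, elastic fibres and adhesive glycoproteins such as fibronectin belong mainly to the interstitial matrix beyond that sheet and are made in large amounts by fibroblasts. Collagen chains wind into triple helices, laminins assemble from an alpha, a beta and a gamma chain, and lysyl oxidases cross-link collagen and elastin after secretion.

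Some genes of the basement membrane and of adhesive glycoproteins were among the most abundant matrix transcripts per kilobase. Others of the same groups were among the lowest, such as Lama4 (0.0413) and Matn4 (0.129). Most chains of fibrillar, fibril-associated and transmembrane collagens, elastin and the fibrillins lay under the median of all genes. Sparc had the highest level, 2641 normalised counts per kilobase. It was followed by Col18a1 (2047), Fn1 (1663), Thbs1 (1641) and Loxl2 (1255). These 5 genes held 46.8% of the summed levels per kilobase of the matrix genes, and the 10 highest held 66.1%. In undivided counts, the most reads came from Fn1, the gene of fibronectin, with a mean of 26326. The sum of the means over the 78 genes, 155213, was 0.927% of that over all genes.

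Levels spread widely. A mean of at least 1000 was reached by 29 of 78 genes (37.2%), compared with 20.9% of all genes and 31% of the 13862 protein-coding genes. A mean of at least 10000 was reached by 5 of 78 (6.41%), compared with 0.543% of all genes and 0.779% of protein-coding genes. At the other end, 19 genes had a mean under 10, and 59 (75.6%) reached 10, compared with 66.5% of all genes and 85.3% of protein-coding genes. Between 100 and 1000 lay 15 of them (19.2%), compared with 29.4% of all genes and 42% of protein-coding genes. Per kilobase, the median of the matrix genes was 29.3, close to the 28.6 of all genes and under the 72.7 of protein-coding genes.

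**Figure D1:**
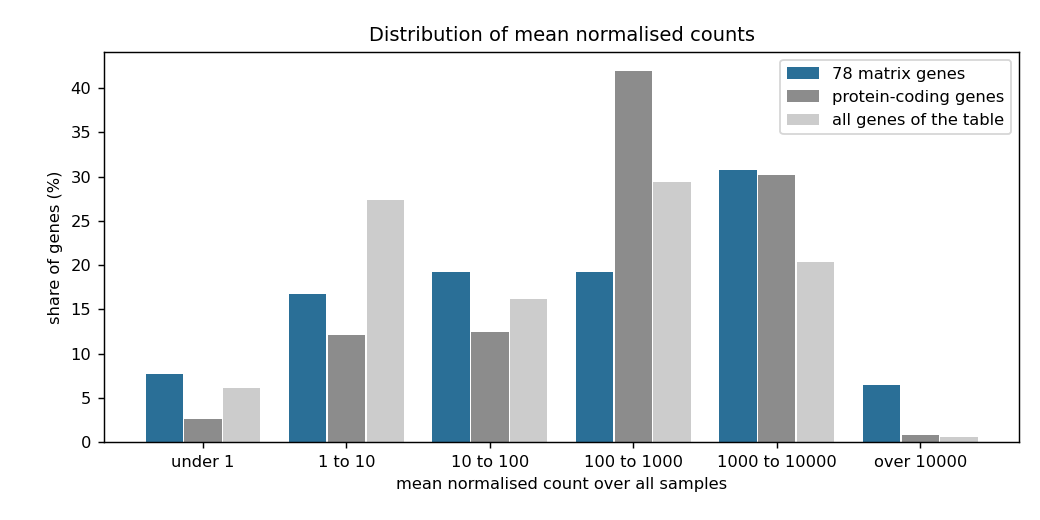
Share of genes (%, vertical axis, from 0) by mean normalised count over all 6 samples (horizontal axis, bins of 10-fold width between open ends), for the 78 matrix genes, protein-coding genes and all genes of the table. The matrix genes were most frequent in the bin from 1000 to 10000 (30.8%), and 6.41% of them lay over 10000, compared with 0.779% of protein-coding genes.

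The classes differed in where their members lay. All 6 collagen IV genes had a mean of at least 1000, as did 5 of 10 laminin chains, 4 of 10 adhesive and matricellular glycoproteins, 3 of 5 lysyl oxidases and 3 of 5 nidogens and basement membrane linkers. That level was reached by 5 of 16 genes of elastic fibres and microfibrils and 1 of 4 collagen VI genes, shares near the 20.9% of all genes and 31% of protein-coding genes. It was reached by 1 of 10 fibrillar collagens and by none of the 5 fibril-associated, 2 hexagonal network or 2 transmembrane collagens. Of the summed levels per kilobase, adhesive and matricellular glycoproteins held 34.3%, laminins 14.5%, collagen IV 11.1%, lysyl oxidases 10.9%, and the class of Col18a1 with Col7a1 and Col15a1 10.8%. Elastic fibre and microfibril genes held 8%, nidogens and linkers 6.17%, fibrillar collagens 1.94% and collagen VI 1.7%. The order after the first class depended on the length used. Per coding kilobase, adhesive and matricellular glycoproteins held 42.3%, elastic fibre and microfibril genes 11.3%, lysyl oxidases 11.1%, laminins 10.4%, collagen IV 8.56% and the class of Col18a1 6.21%.

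**Figure D2:**
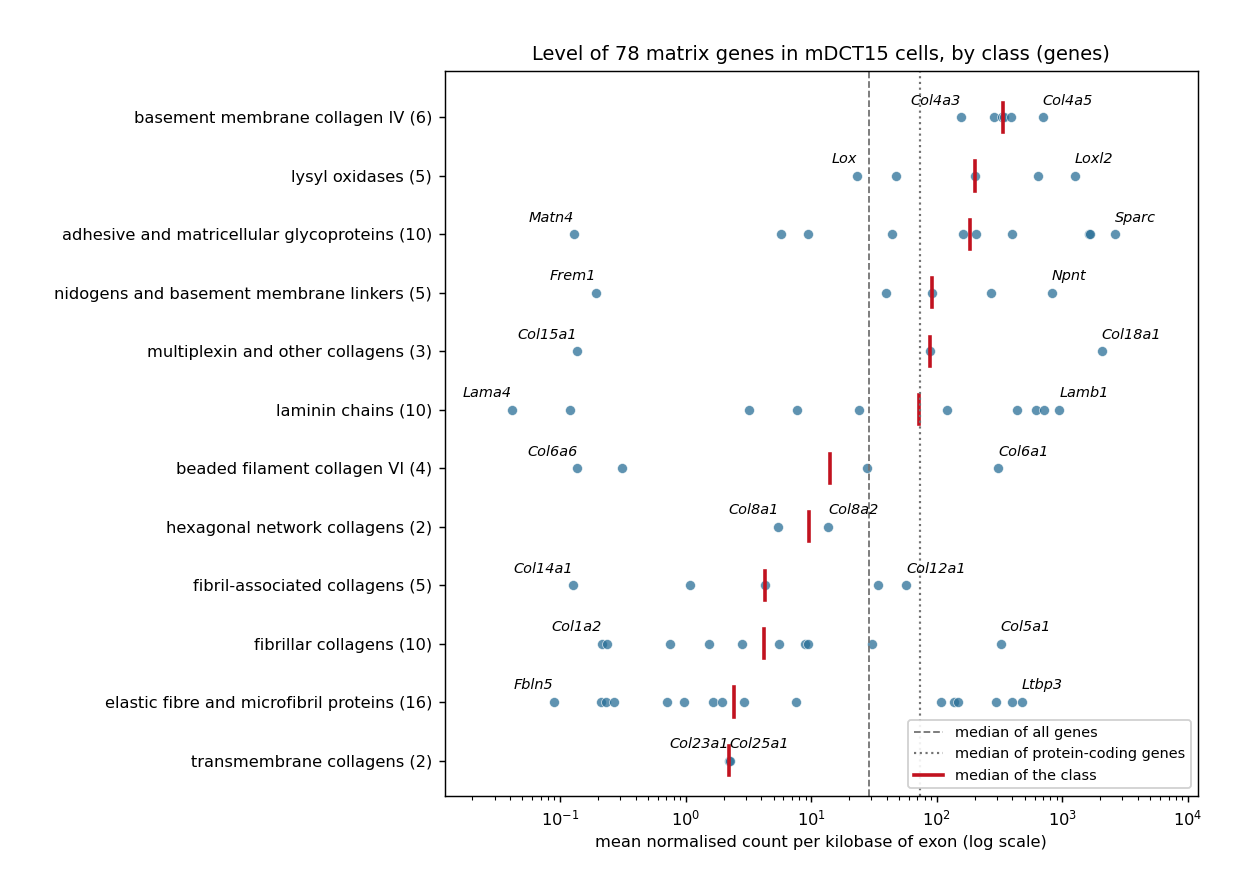
Each point is 1 of the 78 matrix genes, placed by its mean normalised count per kilobase of exon (horizontal axis, log scale) in the row of its class, with the number of genes in brackets. Red bars mark class medians, the dashed line the median of all genes and the dotted line that of protein-coding genes. All 6 collagen IV genes lay to the right of both lines, between 156 and 695, whereas the laminins reached from 0.0413 (Lama4) to 945 (Lamb1).

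Collagen IV is the network-forming collagen of basement membranes. Its chains assemble as trimers of Col4a1 with Col4a2, of Col4a3 with Col4a4 and Col4a5, or of Col4a5 with Col4a6, and mutations of COL4A3, COL4A4 and COL4A5 cause Alport syndrome, a hereditary disease of the glomerular basement membrane. All 6 chains were abundant. Col4a5 had the highest level of the family, with a mean of 6489 normalised counts (695 per kilobase). Col4a4 followed with 4452 (390 per kilobase), and Col4a1 had 2540 (340 per kilobase). Col4a2 had 2378 (331 per kilobase), Col4a6 had 2259 (283 per kilobase) and Col4a3 had 1553 (156 per kilobase). The whole family thus lay within a ratio of 4.46 between its highest and its lowest chain per kilobase.

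The collagen IV genes are arranged in pairs that share a start region and are transcribed away from each other. On GRCm39, Col4a1 (chr8:11248423-11362826, minus strand) and Col4a2 (chr8:11362471-11499287, plus strand) start 355 bp apart with overlapping ends. Col4a3 (chr1:82564642-82699780, plus strand) and Col4a4 (chr1:82426144-82564800, minus strand) start 158 bp apart, also overlapping. Col4a5 (chrX:140258354-140472231, plus strand) and Col4a6 (chrX:139948399-140257072, minus strand) start 1282 bp apart with a gap between them.

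Within these pairs the pooled levels were alike in 1 case and unequal in 2. Col4a1 exceeded Col4a2 by a ratio of 1.03 per kilobase, which stayed between 1.03 and 1.09 under every definition of length tried. For this pair, the count ratio in the genotype with the higher Col4a1 is known only to be at least 0.534. Whether the 2 chains were alike within a genotype is therefore not shown. The ratio of Col4a4 to Col4a3 was 2.5, and that of Col4a5 to Col4a6 was 2.45. Without any correction for length both of these ratios were 2.87, and in the genotype with the higher Col4a4 or Col4a5 the count ratio was at least 1.43 and 1.44, respectively. About 10.1% of the exon bases of Col4a3 lie opposite an exon of another gene, including Col4a4.

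The 2 ends of the interval between Col4a6 and Col4a5 are shown because both genes of this pair start from it while their levels differ. The middle of the interval is not shown. Printed are the 250 bases before each start site on the strand of the gene, with matches to 3 promoter motifs in capitals. The motif TATAAA of the TATA box was searched on both strands, as were the CCAAT box and the GC box GGGCGG.
Col4a5, chrX:140258104-140258353, plus strand: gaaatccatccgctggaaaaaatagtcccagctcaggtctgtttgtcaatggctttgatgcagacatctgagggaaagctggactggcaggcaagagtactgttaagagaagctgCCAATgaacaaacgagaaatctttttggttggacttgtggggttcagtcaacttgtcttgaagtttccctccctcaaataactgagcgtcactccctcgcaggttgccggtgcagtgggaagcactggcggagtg
Col4a6, chrX:140257073-140257322, minus strand: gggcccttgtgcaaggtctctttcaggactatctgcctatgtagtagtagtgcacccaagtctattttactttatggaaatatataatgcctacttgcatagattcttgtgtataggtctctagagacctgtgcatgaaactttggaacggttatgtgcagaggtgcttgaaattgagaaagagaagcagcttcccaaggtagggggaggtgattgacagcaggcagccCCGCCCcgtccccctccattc
The window of Col4a5 held 1 CCAAT and no GC box, whereas that of Col4a6 held 1 GC box and no CCAAT. Neither held TATAAA. In the same windows of all 78 matrix genes, a GC box was found in 48.7%, compared with 48.4% of protein-coding genes, and CCAAT in 35.9%, compared with 36.3%. TATAAA was found in 6.41% of the matrix genes and 7.46% of protein-coding genes. Matrix genes therefore held these letters about as often as other protein-coding genes, and a match is a description of the sequence only.

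The proteins of the collagens share a repeat of triplets that each start with glycine (Gly-X-Y), the only residue small enough for the centre of the triple helix. In collagen IV this repeat is interrupted many times, which gives the molecule its flexibility. Translation of the annotated coding sequences gave 22 to 27 separate runs of at least 5 uninterrupted triplets per collagen IV chain, covering 74.9% to 78.8% of the residues, with the longest run between 117 and 198 residues. Fibrillar chains instead held 1 long run. In Col5a1, the highest fibrillar chain, it spanned 1014 residues, and among the other fibrillar chains it spanned 1011 to 1032 residues except in Col27a1, in which the longest run had 651. Col18a1, the highest collagen of these cells, had 14 short runs, the longest of 90 residues, which covered only 28.6% of its 1774 residues.

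To show this repeat, the coding bases of 30 residues at the start of the longest run are given for the 6 collagen IV chains and, for comparison, for Col18a1 and Col5a1, each the highest of its class. Capitals mark the glycine codon that opens each Gly-X-Y triplet, glycine codons at the other positions are in lower case, and positions count residues from the start of the protein.
Col4a1, residues 43 to 72: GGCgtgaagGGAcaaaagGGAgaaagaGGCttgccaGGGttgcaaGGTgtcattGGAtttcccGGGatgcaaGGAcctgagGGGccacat
Col4a2, residues 777 to 806: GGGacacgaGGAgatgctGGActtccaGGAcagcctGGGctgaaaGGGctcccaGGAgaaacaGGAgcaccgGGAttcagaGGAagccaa
Col4a3, residues 43 to 72: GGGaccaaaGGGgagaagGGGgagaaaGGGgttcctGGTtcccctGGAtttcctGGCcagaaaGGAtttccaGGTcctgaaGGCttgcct
Col4a4, residues 823 to 852: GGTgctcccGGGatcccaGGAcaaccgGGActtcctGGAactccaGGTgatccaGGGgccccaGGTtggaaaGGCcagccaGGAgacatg
Col4a5, residues 1249 to 1278: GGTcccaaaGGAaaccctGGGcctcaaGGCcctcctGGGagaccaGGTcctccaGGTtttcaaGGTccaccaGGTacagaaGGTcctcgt
Col4a6, residues 822 to 851: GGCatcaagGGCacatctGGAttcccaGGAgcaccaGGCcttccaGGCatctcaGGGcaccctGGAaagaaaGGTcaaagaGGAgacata
Col18a1, residues 953 to 982: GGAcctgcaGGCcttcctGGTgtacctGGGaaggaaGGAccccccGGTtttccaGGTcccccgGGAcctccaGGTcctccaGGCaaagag
Col5a1, residues 559 to 588: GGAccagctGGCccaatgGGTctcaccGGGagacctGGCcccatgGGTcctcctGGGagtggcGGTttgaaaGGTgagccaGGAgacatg
Glycine heads every triplet here because the stretches were taken from runs defined by it. The stretches start at different residues of the chains, so the codons between do not compare matching positions. Over the aligned proteins, Col4a1 and Col4a5 were identical at 63% of positions, Col4a3 and Col4a5 at 57.5% and Col4a1 and Col4a3 at 55.8%. Col4a2, Col4a4 and Col4a6 were identical with each other at 53.4% to 53.5%, and pairs across these groups of chains at 50.4% to 53.4%.

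**Figure D3:**
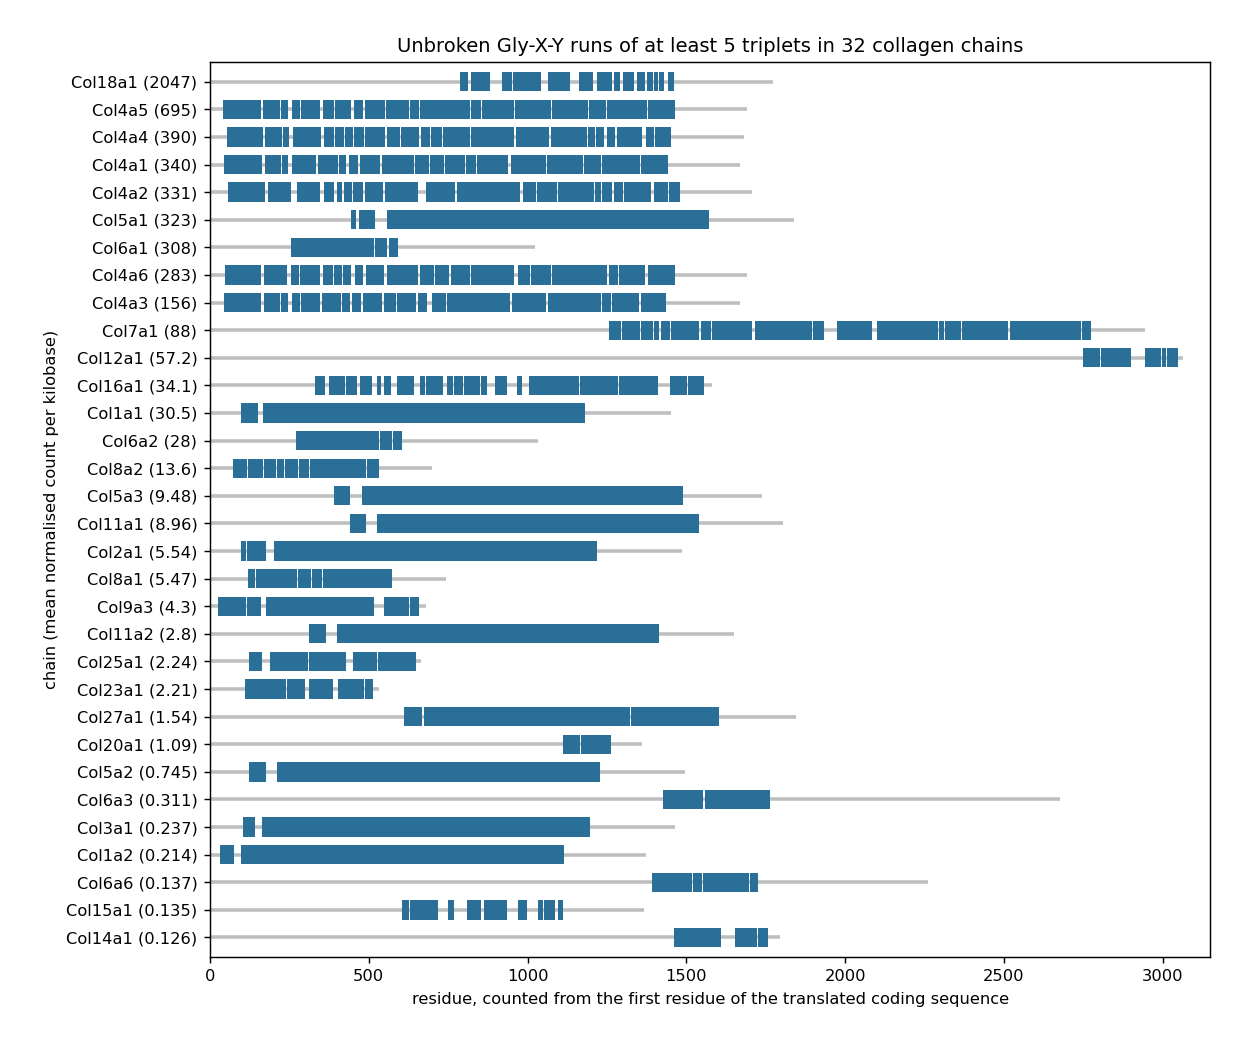
Unbroken Gly-X-Y runs of at least 5 triplets (blue blocks) along the 32 collagen chains (grey lines, horizontal axis in residues), ordered from the highest (top) to the lowest mean normalised count per kilobase, which is given in brackets. Collagen IV chains show 22 to 27 short blocks, whereas fibrillar chains such as Col5a1 and Col1a1 show 1 long block, of 1014 residues in both.

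The other collagens were led by Col18a1 (chr10:76888012-77002390, minus strand), which encodes a basement membrane collagen whose C-terminal fragment is endostatin. Its mean of 14457 normalised counts (2047 per kilobase) made up 39.6% of the summed level per kilobase of the 32 collagen genes, and the collagen IV genes made up 42.5%. An exon of Slc19a1 lies opposite 12.7% of its exon bases. Col15a1, the closest relative of Col18a1, had a mean of only 0.935, which allows at most 1.87 in either genotype. Col7a1, the collagen of anchoring fibrils in skin, had a mean of 906 (88 per kilobase).

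Of the 10 fibrillar collagens, Col5a1 alone lay clearly above the median of all genes per kilobase (28.6), and Col1a1 lay close to it. Col5a1 (chr2:27776397-27929526, plus strand) encodes a chain of collagen V, which regulates the diameter of collagen fibrils, and had a mean of 2816 (323 per kilobase). Its usual partner Col5a2 had a mean of 8.33 (0.745 per kilobase) and Col5a3 had 65.3 (9.48 per kilobase). The ratio of Col5a1 to Col5a2 was 433 per kilobase of all exons and 275 per coding kilobase, and in the genotype with the higher Col5a1 the count ratio was at least 169.

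The collagens that make up most interstitial fibrils were unequal. Col1a1 had a mean of 201 normalised counts (30.5 per kilobase). Col1a2, which joins it in collagen I, had 2.71 (0.214 per kilobase), and Col3a1 had 2.44 (0.237 per kilobase). Col1a2 and Col3a1 thus could not exceed 5.42 and 4.88 in either genotype. The ratio of Col1a1 to Col1a2 was 143 per kilobase of all exons and 67.8 per kilobase of the longest transcript, and the count ratio was at least 37 in the genotype with the higher Col1a1. Together, the levels of the 6 collagen IV genes per kilobase were 70.8 times those of Col1a1, Col1a2 and Col3a1.

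Collagen VI, which forms beaded filaments at the border of the basement membrane, was likewise uneven. Col6a1 had a mean of 1799 (308 per kilobase), Col6a2 had 307 (28 per kilobase) and Col6a3 had 3.74 (0.311 per kilobase). The ratio of Col6a1 to Col6a3, chains of a common trimer, was 990 per kilobase of all exons and 1539 per coding kilobase. In undivided counts it was 480, and at least 240 in the genotype with the higher Col6a1. Col6a6 was the lowest of the class, with a mean of 1.32.

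None of the remaining collagens reached a mean of 1000. Col12a1, a fibril-associated collagen, was the highest of them with a mean of 875 (57.2 per kilobase), above 59.9% of all genes per kilobase, and the lowest of its class, Col14a1, had 0.884 (0.126 per kilobase). The hexagonal network collagens Col8a2 and Col8a1 had 68.8 and 42.8 (13.6 and 5.47 per kilobase). The transmembrane collagens Col25a1 and Col23a1 had 29.2 and 13.1 (2.24 and 2.21 per kilobase). In all, 24 of 32 collagen genes had a mean of at least 10, 9 had at least 1000, and 8 lay under 10. For comparison, 85.3% of protein-coding genes reached 10 and 31% reached 1000.

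Laminins form the cell-facing network of the basement membrane, and the alpha chain binds the receptors of the cell. The highest chain of each of the 3 types had a mean over 1000. Lamb1 (chr12:31315030-31379658, plus strand) had a mean of 10141 normalised counts (945 per kilobase) and held 68.2% of the beta chain level per kilobase. Lama5 (chr2:179818166-179867712, minus strand) had 8147 (712 per kilobase) and held 85.2% of the alpha chain level. Lamc1 (chr1:153094597-153208774, minus strand) had 6943 (613 per kilobase) and was the highest gamma chain. These are the chains of the laminin that is widespread in adult epithelial basement membranes.

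The order among these 3 chains depended on the length used. Per kilobase of all exons Lama5 exceeded Lamc1 by a ratio of 1.16, but per kilobase of the longest transcript the ratio was 0.813 and per coding kilobase 0.507, so the order was reversed. Lamb1 exceeded Lamc1 under all definitions, by ratios from 1.28 to 1.95. Lamb2, another beta chain, had a mean of 2635 (433 per kilobase). The ratio of Lamb1 to Lamb2 was 2.18 per kilobase of all exons but 3.66 with the longest transcript and 3.78 with the coding sequence. Lama1, an alpha chain of the embryo that is kept in tubules of the adult kidney, had 1166 (120 per kilobase).

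Other laminins were low. Lama3 and Lamb3, chains of the epithelial laminin of hemidesmosomes, had means of 40.8 and 63.5 (3.17 and 7.71 per kilobase). Lamc3 had a mean of 1.12. Lama4, a chain typical of vessels and mesenchyme, had 0.649, which allows at most 1.3 in either genotype. It was the lowest of the 78 genes per kilobase, and the smallest mean of any gene analysed was 0.618.

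**Figure D4:**
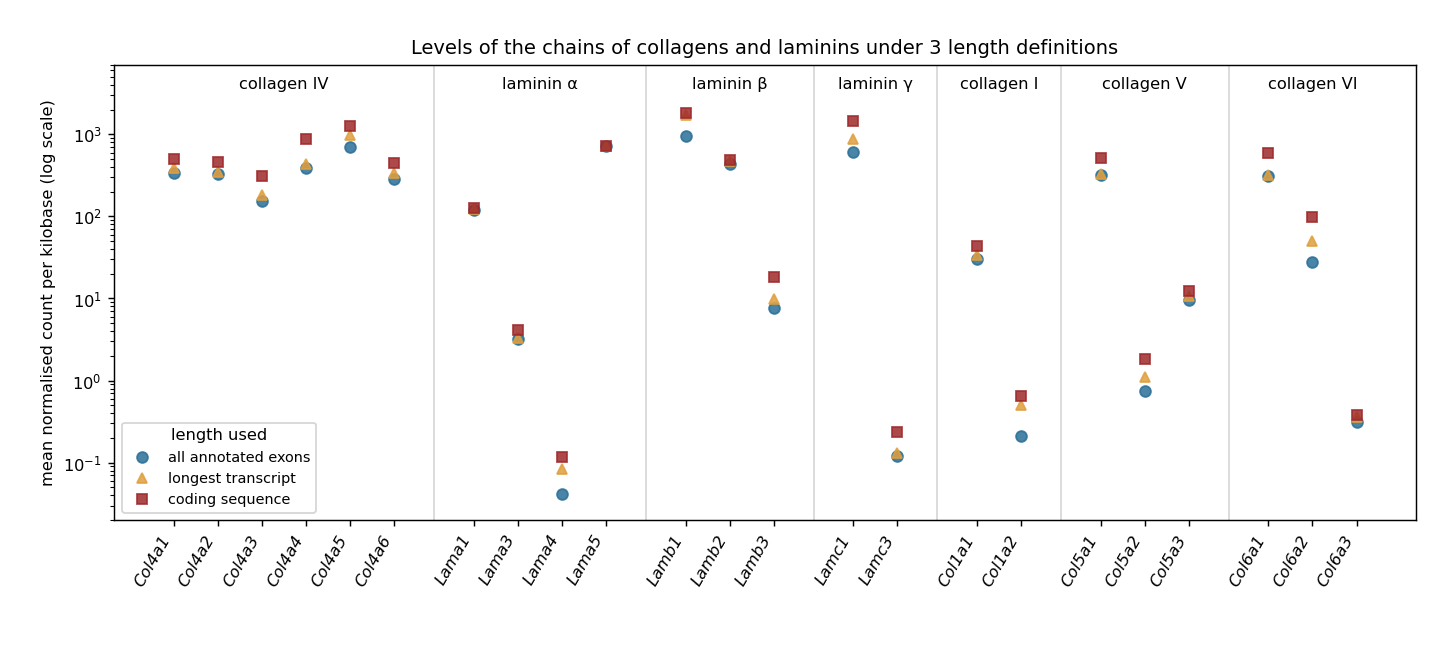
Mean normalised count per kilobase (vertical axis, log scale) of chains of collagen IV, laminins and collagens I, V and VI, with the length taken from all annotated exons (circles), the longest transcript (triangles) or the coding sequence (squares). The 6 collagen IV chains lay within 1 order of magnitude of each other, whereas Col1a2, Col5a2 and Col6a3 lay far under their partners with each length (ratios of 143, 433 and 990 with all exons).

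Proteins that link the basement membrane to itself and to cells also ranged widely. Npnt, the gene of nephronectin, a ligand of integrin alpha-8 beta-1 in kidney development, had the highest level of its class with a mean of 4439 (819 per kilobase). Nid2, a nidogen that bridges laminin and collagen IV, had 1740 (268 per kilobase). Fras1, a protein that anchors epithelia to the underlying tissue, had 1621 (91.5 per kilobase), whereas Frem1 of the same complex had 2.69 (0.193 per kilobase). The ratio of Fras1 to Frem1 was 475 per kilobase, and at least 301 in counts in the genotype with the higher Fras1. Nid1 and Frem2 were not analysed here.

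The adhesive and matricellular glycoproteins contained 3 of the 4 highest genes per kilobase of all exons. Sparc (chr11:55285317-55314067, minus strand), a small calcium- and collagen-binding protein, was the highest of all with 2641 per kilobase (mean 11262). Fn1 (chr1:71624673-71692419, minus strand) had 1663 per kilobase (mean 26326), and Thbs1 (chr2:117941974-117957616, plus strand), an adhesive glycoprotein that also activates latent TGF-beta, had 1641 (mean 10595). All 3 lay above 99.1% or more of all genes by this measure. Tnc, an anti-adhesive glycoprotein of developing and injured tissue, had a mean of 3180 (399 per kilobase). Matn4, a matrilin of cartilage, was the lowest with a mean of 0.914.

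Lysyl oxidases start the covalent cross-linking of collagen and elastin. All 5 genes had a mean of at least 10. Loxl2 (chr14:69846209-69933283, plus strand), which cross-links collagen IV, was the highest with a mean of 6931 (1255 per kilobase). Loxl1 had 2521 (637 per kilobase) and Loxl4 had 1203 (201 per kilobase). Lox, the founding member of the family, was the lowest with 113 (22.9 per kilobase), so that the ratio of Loxl2 to Lox was 54.7 per kilobase of all exons, 32.5 per coding kilobase and at least 30.6 in counts in the genotype with the higher Loxl2. Exons of other genes lie opposite 22.5% of the exon bases of Loxl2, and how this overlap affected its count was not tested.

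Genes of elastic fibres and microfibrils fell on both sides of the range, with 5 of 16 at a mean of at least 1000 and 7 under 10. Ltbp3 and Ltbp1, which hold latent TGF-beta in the matrix, had means of 4469 and 1474 (476 and 137 per kilobase). Efemp2, a fibulin needed for elastic fibre assembly, had 2178 (400 per kilobase), and Fbln1 had 1362 (297 per kilobase). Mfap3 had 1357 (147 per kilobase). By contrast, Eln, the gene of elastin itself, had a mean of 2.22 and could not exceed 4.43 in either genotype. The fibrillins Fbn1 and Fbn2, the backbone of microfibrils, had 35 and 38 (2.89 and 1.94 per kilobase), and Fbln5 had 0.647 (0.0887 per kilobase), the lowest level of the class. The accessory genes Fbln2, Mfap4, Fbln7 and Emilin1 were also low, with means of 1.61, 1.65, 3.43 and 9.16, and Ltbp2 had 61.3.

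Means under 1 were found for 6 of the 78 genes: Mfap2, Col15a1, Matn4, Col14a1, Fbln5 and Lama4. This share of 7.69% was near the 6.09% of all genes and above the 2.61% of protein-coding genes. A further 13 (16.7%) lay between 1 and 10, compared with 27.4% of all genes and 12.1% of protein-coding genes. Of the matrix genes listed by class, a further 27 were not analysed here, among them Lama2, Thbs2 and Col17a1.

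Collagen needs a set of enzymes and chaperones in the endoplasmic reticulum before it can leave the cell, and these were broadly present. Of 22 genes of collagen modification, folding and secretion, 21 were analysed, 20 had a mean of at least 10 and 13 had at least 1000. Among protein-coding genes, 85.3% reached 10 and 31% reached 1000. P4hb, the disulfide isomerase subunit of prolyl 4-hydroxylase, had 15555 normalised counts (4181 per kilobase). Serpinh1, the collagen chaperone HSP47, had 5701 (813 per kilobase), and Ppib, the cyclophilin of the same compartment, had 2460 (606 per kilobase). P4ha3 was at 0.806, whereas P4ha1 had 3080. Colgalt2 was not analysed here.

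Genes that trim procollagen outside the cell reached a mean of 10 less often. Of 8, 7 were analysed, 4 had a mean of at least 10 and 2 had at least 1000. Among protein-coding genes, 85.3% reached 10 and 31% reached 1000. Pcolce, an enhancer of procollagen C-proteinase, had 3439 (862 per kilobase), and the proteinase Bmp1 itself had 2379 (204 per kilobase). Adamts14, an N-proteinase, had 170 (29.2 per kilobase). Adamts2 was not analysed here.

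Several components of basement membranes outside the 78 genes were high as well. Of 11 genes, 9 were analysed. A mean of at least 10 was found for 8 and at least 1000 for 5, compared with 85.3% and 31% of protein-coding genes. Agrn, the gene of agrin, had 13678 (1423 per kilobase), and Hspg2, the gene of perlecan, had 17505 (1099 per kilobase). Tinagl1 had 5555 (1015 per kilobase). Smoc1 was at 0.824, and Smoc2 and Egflam were not analysed here.

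Receptors for these proteins were also found. Of 18 genes, 17 were analysed, 15 had a mean of at least 10 and 12 had at least 1000. The shares of protein-coding genes at these limits were 85.3% and 31%. Itgb1, the beta subunit shared by most matrix-binding integrins, had 17585 (2945 per kilobase). Sdc4, a heparan sulfate proteoglycan of the cell surface, had 8118 (2801 per kilobase), and Dag1, the laminin receptor dystroglycan, had 9241 (1328 per kilobase). Itga8, the alpha subunit of the nephronectin receptor, was not analysed here.

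**Figure D5:**
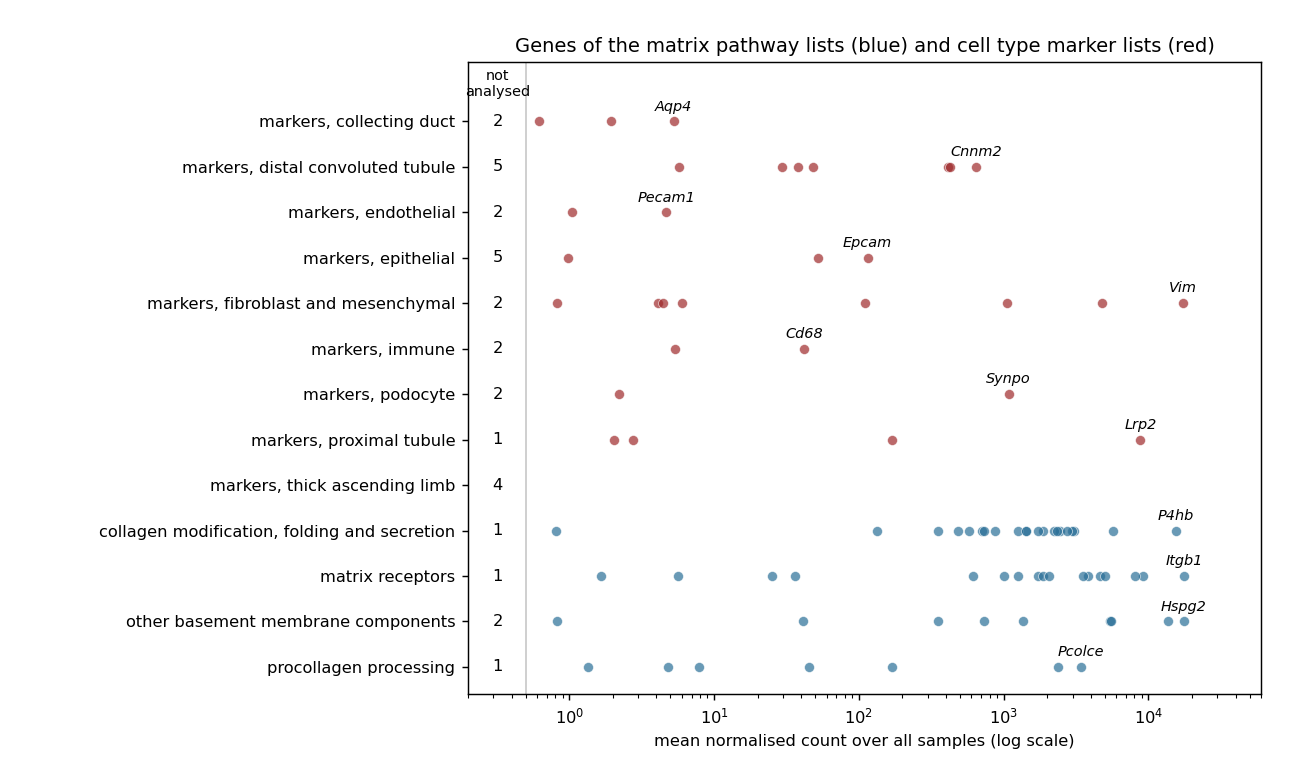
Mean normalised count over all 6 samples (horizontal axis, log scale) of the genes in 4 matrix pathway lists (blue) and 9 lists of cell type markers (red). Each point is a gene, the highest of each list is named, and the column at the left counts listed genes that were not analysed. Of the genes of collagen modification, 20 lay over 100, whereas the analysed markers of collecting duct and endothelium all lay under 10.

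The labelled cell type was set beside its markers. Of 12 markers of the distal convoluted tubule, 7 were analysed and 6 had a mean of at least 10. At least 100 was reached by 3: Cnnm2 (643), Kcnj16 (428) and Wnk4 (413). Of protein-coding genes, 85.3% reached 10 and 72.9% reached 100. Slc12a3, which encodes the sodium-chloride cotransporter that defines the segment, was not analysed here, and neither were Pvalb, Calb1 and Fxyd2, so that nothing can be said here of their levels. Of 8 general epithelial markers 3 were analysed, namely Epcam (115), Ocln (52.6) and Krt8 (0.98), whereas Cdh1, Krt18, Krt19, Cldn7 and Cldn8 were not. The name of the line is therefore taken from the labels and rests on few markers in these data.

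Markers of other cells are given because fibroblasts and vessels also make matrix. Of 10 fibroblast and mesenchymal markers, 8 were analysed, with a summed mean of 23423. Vim (17450), Cdh2 (4790) and Tagln (1057) were high, and Acta2 had 110. Pdgfra, Pdgfrb and Dcn, which mark fibroblasts more closely, had 4.12, 4.48 and 6.01, Fap had 0.827, and Lum and Thy1 were not analysed here. Pecam1 and Tek of endothelial cells had 4.68 and 1.04, and Cdh5 and Kdr were not analysed here.

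Among markers of other nephron segments, Lrp2 of the proximal tubule had a mean of 8826 and Cubn 169, whereas Slc34a1 and Slc5a2 of the same segment had 2.04 and 2.77 and Slc5a12 was not analysed here. The podocyte gene Synpo had 1084, Wt1 had 2.22, and Nphs1 was not analysed here. Aqp4, Aqp3 and Scnn1g of the collecting duct had 5.27, 1.95 and 0.618, and Aqp2 and Scnn1b were not analysed here. None of the 4 thick ascending limb markers Umod, Slc12a1, Cldn16 and Cldn10 was analysed. Of the immune markers, Cd68 had 41.9 and Ptprc 5.36, and Adgre1 and Cd3e were not analysed here. Pkd1 itself had a pooled mean of 3175, which does not separate the genotypes.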

How the data were processed

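RNA of 3 Pkd1-/- and 3 wild type mDCT15 samples was depleted of ribosomal RNA and sequenced as pairs of 42 bp reads. The submitters' processing notes and the paper name Trim Galore 0.4.5, STAR 2.7.5a, the GRCm39 genome with Ensembl annotation, HTSeq 0.11.0 at its default parameters and DESeq2 1.22.0 in R 3.5.3, with a minimum of 5 counts per sample and gene. Means as low as 0.618 are hard to reconcile with 5 counts in every sample, and how that minimum was applied is not known. The deposited table gives the authors' mean normalised count per gene, a signal averaged over all 6 samples. Its other columns hold the authors' own comparison of the genotypes (log2 fold change, its standard error, the Wald statistic, the p-value and the adjusted p-value). These were not used, so no test was made, and replicates were not set beside each other.

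Gene models came from GENCODE M39 on GRCm39, in which all 78 members and 97.6% of all identifiers were found by Ensembl identifier. It is not the annotation release used for counting, so exon lengths may differ. Levels per kilobase are the mean divided by the union of the annotated exons. The longest transcript, the coding sequence and no correction were tried as alternatives, as were detection limits of 5 and 50 in place of 10 and 2 other backgrounds. Proteins were translated from annotated coding sequences, in place of the protein table foreseen in the design, and Gly-X-Y runs of at least 5 triplets were counted. With up to 10 interrupting residues joined, the longest collagen IV runs reached 495 to 1205 residues. Sequences were read from the GRCm39 genome and the GENCODE transcripts with Python 3.11.15 and Biopython 1.88. The search for runs was tested on simulated sequences that held glycine only at the heads of triplets. The simulated check of levels per kilobase could not fail, because it multiplied and divided by the same length. Whether the counting used strand was not checked, so genes with exons opposite another gene are uncertain.

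Members and lists were chosen with earlier results of these data known. Named with values were members that reached 1000 in the pooled mean, the extremes of each class per kilobase, the chains of the listed trimers, members under a mean of 1, and of the other lists the 3 highest per kilobase and genes that were under 1 or not analysed. Genes named beyond this rule (Col7a1, Lamc3, Fbn1, Fbn2, Eln, Fbln2, Mfap4, Fbln7, Emilin1, Ltbp2, P4ha1, Pkd1 and the remaining markers) were chosen after their values were seen. Some genes that the rule names are not reported here.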

Additional observations from a re-analysis of the deposited data

How the results depend on the processing

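Every value is a pooled mean without replicate error, so no spread can be set beside a ratio, low means rest on few reads, and differences between the genotypes are outside what was compared. No paired analysis was possible because no result comes from a test and no values of single samples were used. With the longest transcript, the coding sequence and no length correction in place of all exons, the ratio of Col4a1 to Col4a2 was 1.09, 1.09 and 1.07 (1.03 with all exons), that of Col4a4 to Col4a3 was 2.37, 2.84 and 2.87 (2.5), that of Col4a5 to Col4a6 was 2.91, 2.87 and 2.87 (2.45), and that of Lamb1 to Lamc1 was 1.95, 1.28 and 1.46 (1.54). The ratio of Lama5 to Lamc1 was reversed with the longest transcript (0.813) and the coding sequence (0.507) and was 1.17 without correction (1.16), which follows from the lengths used. Detection limits of 5 and 50 left 62 and 49 genes in place of 59. Of the 10 highest genes per kilobase, 8 stayed among the 10 highest under each of the other lengths. The number of genes above the median of the background was 44 against all genes and 34 against protein-coding genes.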
